A study of Mus musculus with 4 samples.

Results

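A set of 40 activity-induced genes was followed in mouse hippocampus, on 4 one-colour Agilent arrays. They are the rapid transcription factors and effectors that neurons switch on after stimulation, chosen by name: all 40 had a probe, with 60 probes among the 56605 on the array, and all 40 were measured on all 4 arrays, as were 27365 of 37325 genes in all. The groups were wild-type (WT) mice at 4 months, mice heterozygous for an Rp58 knockout (hetero-KO) at 4 months, WT mice at 18 months and hetero-KO mice at 18 months. Rp58 is now called Zbtb18 and encodes a zinc finger repressor of transcription. Each group is 1 array that carries the mixed RNA of 3 samples, so no group has a replicate array and every difference between a pair of arrays stands without a test. The titles of the older groups say 1.5 years, and their descriptions give 12 months as the lower end of the age range. The strain, the sex, the form of the knockout allele and the time of day of tissue collection are not given in the sources used here. All mice lived under equal hours of light and dark.

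Immediate early genes are transcribed within minutes of a calcium or growth factor signal, without new protein synthesis, because factors such as CREB and SRF already sit on their promoters. The first products are mostly transcription factors of the AP-1, EGR and NR4A families, which then drive a later set of genes. Others act at the synapse (Arc, Homer1), are secreted (Bdnf, Nptx2), or end the signal (the Dusp phosphatases). In hippocampus their levels are widely used as a readout of recent neuronal activity.

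A level here is the spot signal divided by the 75th percentile of its array. A difference between arrays is given on the log2 scale, and the scanner software's own spot error of such a difference was 0.20 for nearly every one of these genes. It ranged only from 0.204 to 0.208 among the 40 genes, each read from a probe with 1 spot. It thus acts as a nearly fixed limit set by the software, not as scatter measured over repeat spots or arrays. Levels of different genes come from different probes and are not compared with each other. The 75th percentile signal of the arrays ranged from 1714 to 2111, and 77.9% to 81.9% of spots were well above background. Zbtb18 itself had a WT level of 17.5 against 15.2 for hetero-KO at 4 months, then 18.9 against 21.4 at 18 months; whether its probe lies in the removed part is unknown, so these values check nothing about the labels. The granule cell factor Prox1 (1.92 to 2.27) and the pyramidal cell factor Neurod6 (5.27 to 6.93), named as defining markers, were measured on every array. So were 27365 of 37325 genes in all, which makes this a weak check of the tissue label. Markers of neighbouring tissue were not constant. They are given as summed levels, in which the brightest probes weigh most. For striatum in WT the sum hardly differs between the ages, though 14 of 18 markers were lower at 18 months (median −0.31). The summed level of 18 striatum markers was 42.0 (WT) against 81.5 (hetero-KO) at 4 months, then 42.6 against 45.8 at 18 months. That of 17 thalamus and habenula markers was 53.4 and 39.7, then 18.5 and 15.6, and that of 20 choroid plexus markers was 125 and 100.2, then 146 and 113. The pools also differed in sex makeup: the Y-linked gene Eif2s3y, singled out after its values were seen, stood at 0.673 for the young WT pool, below background for the young hetero-KO pool, and at 1.30 and 1.33 for the older pools.

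The promoters of 6 of the genes described below are shown here, as 250 bases before the annotated start. The annotation is RefSeq, build GRCm38.p6, while the array's coordinates are in mm9. Fosl2, Ier5, Nptx2 and Ptgs2, also described below, are not among the 6. Capitals mark the short cAMP response element CGTCA, on either strand, and the CArG box, the site of SRF. Where a gene has several windows, the window with the most matches is shown.
Fos (immediate early AP-1 factor), chr12:85473640-85473889, plus strand:
Fos: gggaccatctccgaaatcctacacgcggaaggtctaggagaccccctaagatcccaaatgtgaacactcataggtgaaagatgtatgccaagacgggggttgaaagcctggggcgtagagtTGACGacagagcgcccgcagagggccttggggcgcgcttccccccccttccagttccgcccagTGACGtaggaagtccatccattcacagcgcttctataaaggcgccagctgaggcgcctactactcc
Egr2 (zinc finger factor), chr10:67537619-67537868, plus strand:
Egr2: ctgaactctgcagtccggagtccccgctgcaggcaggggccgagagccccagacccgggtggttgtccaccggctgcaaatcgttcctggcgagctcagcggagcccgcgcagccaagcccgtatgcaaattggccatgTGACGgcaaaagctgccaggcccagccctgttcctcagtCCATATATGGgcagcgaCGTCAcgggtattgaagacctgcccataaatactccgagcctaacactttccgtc
Nr4a1 (orphan nuclear receptor), chr15:101266596-101266845, plus strand:
Nr4a1: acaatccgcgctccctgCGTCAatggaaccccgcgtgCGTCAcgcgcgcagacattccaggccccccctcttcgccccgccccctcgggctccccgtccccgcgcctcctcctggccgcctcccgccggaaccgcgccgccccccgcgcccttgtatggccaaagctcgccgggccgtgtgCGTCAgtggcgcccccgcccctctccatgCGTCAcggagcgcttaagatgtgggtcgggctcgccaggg
Dusp5 (nuclear ERK phosphatase), chr19:53528895-53529144, plus strand:
Dusp5: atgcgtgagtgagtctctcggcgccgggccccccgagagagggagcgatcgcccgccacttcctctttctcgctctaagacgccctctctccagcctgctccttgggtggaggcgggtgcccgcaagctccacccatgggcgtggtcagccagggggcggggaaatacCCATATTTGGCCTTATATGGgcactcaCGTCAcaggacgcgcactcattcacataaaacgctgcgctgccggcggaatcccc
Btg2 (anti-proliferative factor), chr1:134079156-134079405, minus strand:
Btg2: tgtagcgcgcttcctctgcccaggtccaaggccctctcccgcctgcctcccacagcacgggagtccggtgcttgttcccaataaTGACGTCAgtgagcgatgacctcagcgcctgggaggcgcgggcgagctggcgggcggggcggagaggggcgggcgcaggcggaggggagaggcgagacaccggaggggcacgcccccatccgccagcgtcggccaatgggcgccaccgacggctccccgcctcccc
Klf4 (zinc finger factor), chr4:55532476-55532725, minus strand:
Klf4: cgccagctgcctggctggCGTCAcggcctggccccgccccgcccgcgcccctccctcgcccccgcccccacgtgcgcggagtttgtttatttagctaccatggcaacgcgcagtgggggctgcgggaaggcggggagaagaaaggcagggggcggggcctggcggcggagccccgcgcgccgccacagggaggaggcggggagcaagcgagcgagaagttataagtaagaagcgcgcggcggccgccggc
Within these stretches Fos held 2 short elements, Nr4a1 4, Egr2 2 with 1 CArG box between them, and Dusp5 1 with 2 adjoining CArG boxes. Btg2 held the full palindrome TGACGTCA, in which the short element overlaps itself on the opposite strand, and Klf4 held 1 short element far from the start. In windows of 300 bases that also include 50 bases after the start, the short element was present for 23 of the 32 genes with a window (71.9%), against 23.0% of all 27025 genes with one. The 6 genes shown are all among these 23, while Ier5 has a window without the short element. The full TGACGTCA was present for 5 of 32 (15.6%, against 2.03%), and the CArG box for 2 of 32 (6.25%, against 1.81%). The core ACATCTG, given for Rp58 in the literature, was found on either strand for 3 of 32, Atf3, Bdnf and Ier5 (9.38%, against 5.10%). A match is a run of letters and no evidence of binding.

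Hetero-KO against WT was the first comparison. At 4 months 34 of the 40 genes were higher in hetero-KO, where 44.4% of the 28395 genes measured on both arrays were. Their median log2 difference was 0.17, against −0.02 over all genes. At 18 months 30 of 40 were higher, against 47.9% of 27622 genes, with medians of 0.11 and −0.01. At both ages 27 of 40 genes were higher in hetero-KO, against 27.0% of the 27365 genes measured on all 4 arrays. Genes that share inducing signals can move together, so the 40 genes are not 40 independent observations. Only Ier2, Cyr61 and Pim1 were lower at both ages. The differences were small: 19 of 40 genes at 4 months were higher by more than the spot error (8.79% of all genes were) and 1 lower (16.2%). At 18 months these counts were 15 (10.4% of all genes) and 1 (13.5%).

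**Figure D1:**
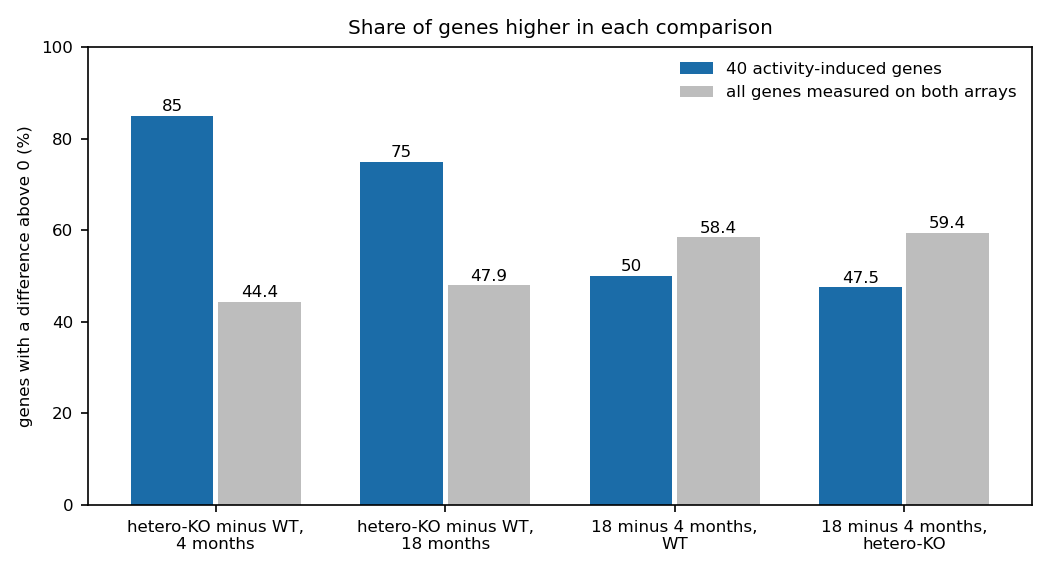
Share of genes, in percent, with a difference above 0 in each of the 4 comparisons between a pair of arrays, for the 40 activity-induced genes (blue) and for all genes measured on both arrays (grey). The blue bars stand at 85% and 75% in the genotype comparisons and at 50% and 47.5% in the age comparisons.

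Past 1.5-fold at 4 months stood Egr2 and Fosl2, both higher in hetero-KO, where 1.80% of all genes were that much higher; none was that much lower (2.71% of all genes). At 18 months these were Nptx2 and Ptgs2, again higher in hetero-KO (2.11% of all genes were), and none was that much lower (2.64%). Among genes at or above the lowest mean level of a member, a smaller share passed 1.5-fold. At 4 months 139 of 19137 such genes were that much higher and 142 lower. At 18 months 176 of 19145 were higher and 227 lower. No member reached 2-fold.

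Over both ages the genotype difference was tested with limma, in an additive model of genotype and age that leaves 1 residual degree of freedom. The p-values therefore measure scatter over 4 pools rather than over mice, and any change of the genotype difference with age counts as scatter. Of the 40 genes 34 were higher in hetero-KO, against 45.0% of 29071 genes tested, and none passed the adjusted p of 0.05 by limma, as 0.0103% of all genes did upward. Without adjustment, 17 of 40 were higher and 0 lower at p under 0.05, where 5.15% of all genes were higher and 6.31% lower. The lowest limma adjusted p among the 40 was 0.160. The adjusted count was 0 under every alternative run.

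**Figure D2:**
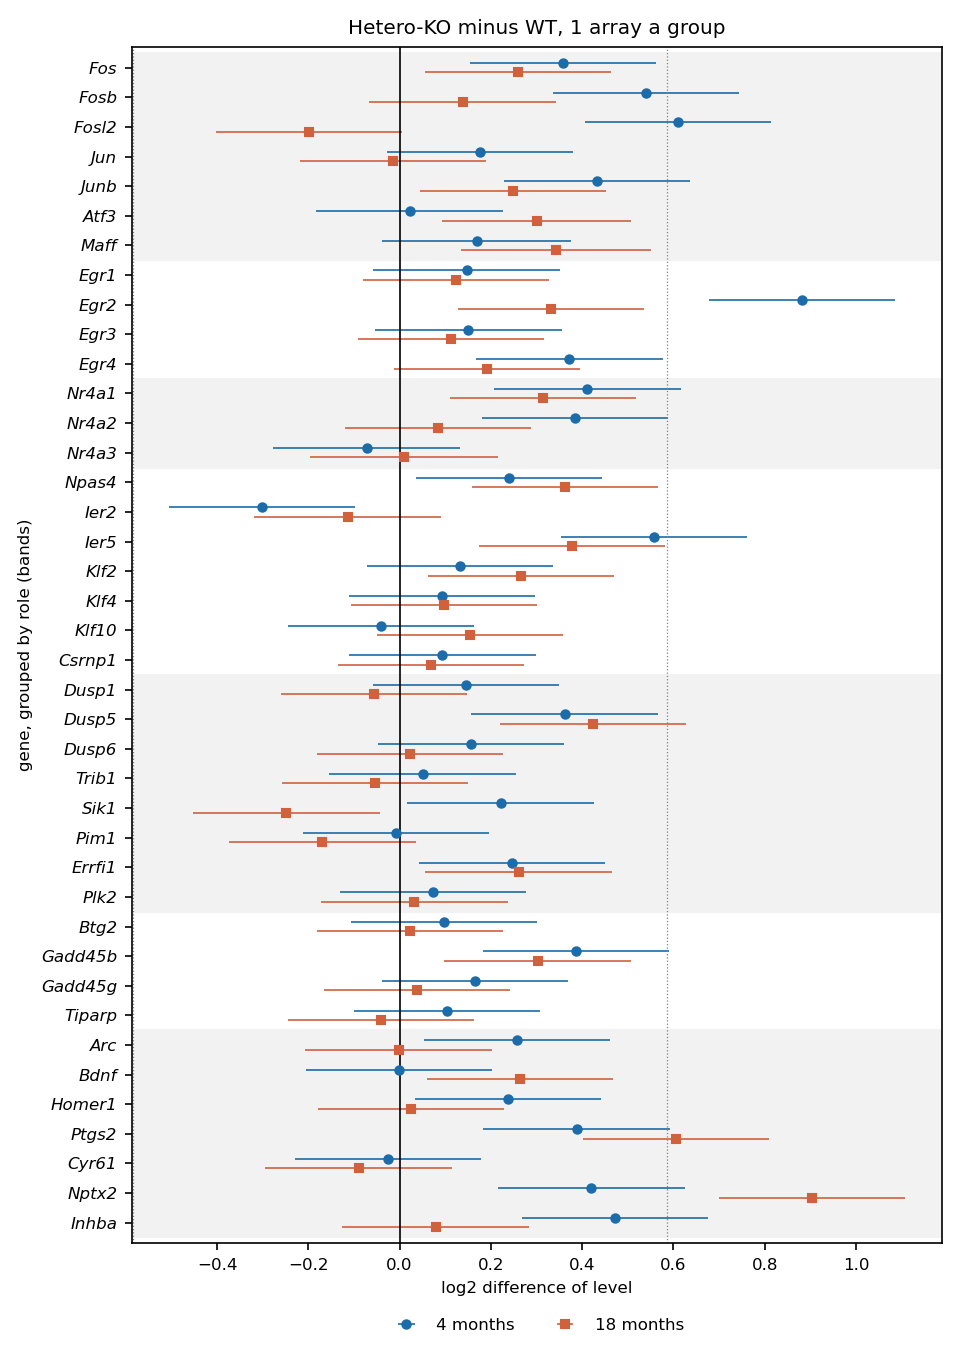
Log2 difference of level, hetero-KO minus WT, for each of the 40 genes in bands by role, at 4 months (blue circles) and 18 months (orange squares); bars are the spot error of the scanner software and dotted lines mark 1.5-fold. Most points lie right of 0 at both ages, with Egr2 at 0.88 farthest right at 4 months and Nptx2 at 0.90 at 18 months.

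All 7 AP-1 factors were higher in hetero-KO at 4 months (median 0.36) and 5 of 7 at 18 months (median 0.25). AP-1 is a dimer of Fos and Jun family proteins. Fos had a WT level of 1.91 against 2.45 for hetero-KO at 4 months, then 1.29 against 1.54 at 18 months. Both hetero-KO arrays were thus above the WT array of their age, while the hetero-KO array of 18 months was below both arrays of 4 months; the difference was 0.36 at 4 and 0.26 at 18 months (limma 0.31 ± 0.05 SE, adjusted p = 0.236). Fosb, whose truncated form accumulates with repeated activity, had levels of 0.411 and 0.598, then 0.409 and 0.450, so that only hetero-KO at 4 months stood clear of the others. Junb had levels of 5.99 and 8.09, then 7.11 and 8.45, and was higher in hetero-KO at each age, by 0.43 and 0.25, though a dimmer probe gave 0.20 and −0.56. Fosl2 went opposite ways at the 2 ages: 1.23 and 1.88 at 4 months, 1.48 and 1.29 at 18 months, or 0.61 and −0.20. Its second probe, dimmer by far, was higher in hetero-KO at both ages, by 0.16 and 0.32. Jun, Atf3 and Maff lay between 0.02 and 0.18 at 4 months, and between −0.01 and 0.34 at 18 months.

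All 4 EGR zinc finger factors exceeded their WT level in hetero-KO, at 4 months and again at 18 months. Egr2 differed most of the 40 genes at 4 months, at 1.35 (WT) against 2.49 (hetero-KO), then 1.33 against 1.67 at 18 months. The 2 WT arrays agree within the spot error and both hetero-KO arrays lie above them; hetero-KO was 1.84-fold higher at 4 and 1.26-fold at 18 months (limma log2 0.61 ± 0.14 SE, adjusted p = 0.300). Egr4 had levels of 6.86 and 8.88, then 7.33 and 8.37, differences of 0.37 and 0.19. Egr1, widely used as a mark of recent activity in hippocampus, was higher by only 0.15 and 0.12, and Egr3 by 0.15 and 0.11, all within the spot error. The other 2 Egr3 probes gave 0.27 and 0.28 at 4 months, and 0.07 and −0.18 at 18 months.

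Of the NR4A receptors, which bind DNA without a known ligand, Nr4a1 had the lowest genotype p of the 40 genes. Its WT level was 14.4 against 19.2 for hetero-KO at 4 months, then 16.7 against 20.7 at 18 months. Both hetero-KO arrays were above both WT arrays, by 0.41 and 0.31 within age (limma 0.36 ± 0.04 SE, adjusted p = 0.160). Nr4a2 had levels of 6.11 and 7.97, then 5.50 and 5.83, and its 2 probes were higher in hetero-KO by 0.38 and 0.47 at 4 months and by 0.08 and 0.21 at 18 months. Nr4a3 was level on its brightest probe, at 0.127 to 0.134, while its other 2 probes were higher in hetero-KO by 0.28 and 0.36 at 4 months.

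Npas4, a factor that is induced by calcium entry in neurons and acts on inhibitory synapses, had levels of 1.95 and 2.30, then 1.73 and 2.22. Its differences of 0.24 and 0.36 exceeded the spot error at both ages. Ier5, a nuclear protein of the immediate early response, had levels of 5.71 and 8.40, then 7.12 and 9.25. It was 1.47-fold and 1.30-fold higher in hetero-KO (limma log2 0.47 ± 0.06 SE, adjusted p = 0.171), and both hetero-KO arrays were above both WT arrays. Ier2, a related gene, went the other way at 4 months, from 0.262 to 0.213, and 0.191 and 0.177 at 18 months. The zinc finger factors Klf2, Klf4 and Klf10 and the nuclear protein Csrnp1 lay between −0.04 and 0.13 at 4 months, and between 0.07 and 0.27 at 18 months.

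Among the 8 genes that switch signals off or pass them on, 7 were higher in hetero-KO at 4 months and 4 at 18 months. Dusp5, which dephosphorylates ERK in the nucleus, had levels of 1.35 and 1.74, then 1.80 and 2.42. Its differences of 0.36 and 0.42 were similar (limma 0.39 ± 0.05 SE, adjusted p = 0.181), and its dimmer probe gave 0.20 and 0.19. Errfi1, an inhibitor of the EGF receptor, had levels of 5.43 and 6.44, then 6.64 and 7.95, or 0.25 and 0.26. Its dimmer probe gave 0.03 and 0.24. The other ERK and MAP kinase phosphatases Dusp1 and Dusp6 and the kinases Pim1 and Plk2 lay within 0.17 of 0 at both ages. So did the pseudokinase Trib1 on its brightest probe. The dimmer Trib1 probes gave −0.01 and −0.24 at 4 months, and 0.07 and 0.20 at 18 months. Sik1, a kinase of the salt-inducible family that holds CREB coactivators out of the nucleus, was higher by 0.22 at 4 months and lower by 0.25 (−0.25) at 18 months. Of the stress and growth arrest genes, Gadd45b had levels of 1.48 and 1.94, then 1.34 and 1.65, above WT at each age by 0.39 and 0.30. Gadd45g, Btg2 and Tiparp lay between 0.10 and 0.17 at 4 months and between −0.04 and 0.04 at 18 months.

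The synaptic and secreted effectors held the largest differences of 18 months. Nptx2, a secreted pentraxin that clusters AMPA receptors, had a WT level of 0.450 against 0.602 for hetero-KO at 4 months, then 0.367 against 0.687 at 18 months. Both hetero-KO arrays were above both WT arrays, and the difference was 0.42 at 4 and 0.90 at 18 months (limma 0.66 ± 0.13 SE, adjusted p = 0.260). A second probe gave 0.47 and 0.77. Ptgs2, the inducible cyclooxygenase, had levels of 0.805 and 1.05, then 0.827 and 1.26, with the WT arrays alike and hetero-KO higher by 0.39 and 0.61 (limma 0.50 ± 0.07 SE, adjusted p = 0.205). Inhba, a subunit of activin, stood apart only in hetero-KO at 4 months, at 0.820 against 0.589 to 0.622 on the other arrays. Arc, which drives endocytosis of AMPA receptors, had levels of 15.3 and 18.3, then 17.1 and 17.0, and Bdnf, the neurotrophin, 1.46 and 1.46, then 1.48 and 1.78. Each of these exceeded the spot error at 1 age only, Arc by 0.26 at 4 months and Bdnf by 0.26 at 18 months. Cyr61, a matrix protein, was lower by 0.03 (−0.03) and 0.09 (−0.09).

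Homer1, whose short activity-induced form ends early in the gene and competes with the long scaffold forms, had 4 probes spread over chromosome 13 from 94116595 to 94174874 (mm9, plus strand). The probe at 94129858 to 94129917 lies between the first and the last; which form it detects was not settled from the files. Its WT level was 0.825 and its hetero-KO level 1.59 at 4 months, against 0.918 and 1.07 at 18 months, so that hetero-KO at 4 months stood alone. Its difference at 4 months was 0.95, larger than that of any of the 40 genes on its brightest probe. The other 3 probes gave 0.11 to 0.27 at 4 months and −0.13 to 0.03 at 18 months. This probe was chosen after its values were seen. Among the 11 members with several probes measured on all arrays, all probes pointed the same way for 9 at 4 months and for 5 at 18 months.

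**Figure D3:**
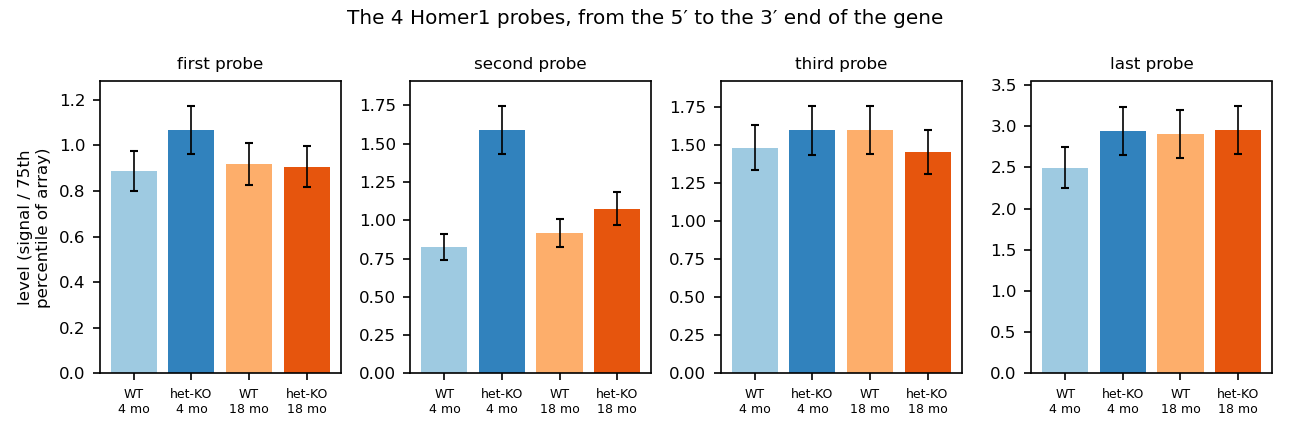
Levels of the 4 Homer1 probes (signal divided by the array's 75th percentile) on the 4 arrays, in order along the gene; bars are 1 array each, with the scanner's spot error. The second probe reaches 1.59 in hetero-KO at 4 months and 0.825 to 1.07 elsewhere. The other probes differ less, by 0.11 to 0.27 on the log2 scale between the genotypes at 4 months.

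Other gene lists, chosen with earlier results of these data known, are set beside these genes. At 4 months all 18 striatum markers were higher in hetero-KO (median 1.03; Adora2a 2.27) and 14 of 15 dentate granule cell markers were lower (median −0.26; Dsp −0.84). Striatal neurons also express Arc and Homer1, and the part of striatal tissue in the 4-month differences was not tested. In bulk tissue, fewer cells of a type and less RNA per cell cannot be told apart. At 18 months 10 of 18 striatum markers exceeded WT (median 0.07), and 13 of 15 granule cell markers were lower (median −0.26). Choroid plexus markers were lower for 19 and 20 of 20 at the 2 ages (medians −0.41 and −0.79). Endothelial markers were lower for 17 of 20 at 4 months (median −0.20) and higher for 13 of 20 at 18 months (median 0.05). Microglial markers were higher for 13 and 17 of 18 (medians 0.07 and 0.23). The part of these cell types in the genotype differences was not tested. At 4 months genotype cannot be told apart from the sex of the pooled mice.

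Further rapid response genes outside the 40 were also higher in hetero-KO more often than lower. Of 33 measured, 22 were higher in hetero-KO at 4 and 22 at 18 months, with medians of 0.07 and 0.03, and 0 passed over both ages by limma (without adjustment, 7 were higher and 1 lower at p under 0.05). The largest differences among these were those of Cebpd, a factor of the C/EBP family (0.33 and 0.64), and Arl4d, a small GTPase of the ARF family (0.55 and 0.49). Of 32 delayed genes, which follow the first wave, 18 and 25 were higher, with medians of 0.07 and 0.06. The opioid precursors Penk (level 8.52 against 24.1) and Pdyn (log2 difference 0.86) led at 4 months, and both are also on the striatum list. Of 24 factors that act upstream, 13 were higher at 4 months (median 0.03) and 15 at 18 months (median 0.04). Creb1, Srf and Mef2 genes are among them, and the largest differences were those of Creb3l1 (−0.51 at 4 months) and Elk3 (−0.35 and −0.33). Kinases of the MAP kinase and calcium pathways had medians of 0.03 and 0.04, with 17 of 27 higher at each age. Genes of heat shock and of stress from tissue dissociation were higher for 12 and 11 of 13 (medians 0.13 and 0.07). Genes induced by glucocorticoids were higher for 12 and 16 of 16 (medians 0.17 and 0.26), with Sgk1 at 0.58 at 4 months and Cdkn1a at 0.61 at 18 months. The glucocorticoid list shares Errfi1 with the 40 genes. None of these lists had a gene past the limma threshold for genotype, and the counts higher and lower at an unadjusted p below that level were 8 and 3 for the delayed genes, 0 and 1 for the upstream factors, 4 and 1 for the kinases, 4 and 0 for heat shock, and 9 and 0 for the glucocorticoid list. The part of stress hormones in the genotype differences was not tested.

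Age was the other comparison. Between 4 and 18 months the genes lay on both sides of 0: 20 of 40 were higher at 18 months in WT, where 58.4% of all genes were, and 19 of 40 in hetero-KO, where 59.4% of all genes were. Their medians were 0.01 and −0.04, against 0.04 over all genes in each genotype. None passed 1.5-fold in WT, where 2.55% of all genes were that much higher and 2.72% lower. In hetero-KO Fos alone did, downward, where 3.05% of all genes did and 3.68% went upward. Among genes at or above the lowest mean level of a member these shares were smaller. In WT 172 of 19143 such genes were higher and 253 lower, and in hetero-KO 333 of 19139 were higher and 318 lower. By array, 18 of the 40 genes were highest in hetero-KO at 4 months and 17 in hetero-KO at 18 months, while 4 and 1 were highest on the WT arrays of 4 and 18 months. Over all genes these 4 shares were 17.0%, 30.3%, 24.0% and 28.7% in the same order.

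By limma over both genotypes 1 of the 40 genes rose with age and 3 fell, where 1.46% of 29071 genes rose and 0.643% fell. Fos fell most: its levels of 1.91 and 2.45 at 4 months stood above 1.29 and 1.54 at 18 months, in WT and hetero-KO, so the ages did not overlap. The change was −0.57 in WT and −0.67 in hetero-KO (limma −0.62 ± 0.05 SE, adjusted p = 0.0347). Btg2, an anti-proliferative cofactor of mRNA decay, fell from 0.620 and 0.663 to 0.439 and 0.446, by 0.54 on the log2 scale (limma −0.54 ± 0.06 SE, adjusted p = 0.0464). Its second probe pointed the same way with −0.19 in WT and −0.34 in hetero-KO. Klf4 fell from 2.14 and 2.28 to 1.58 and 1.69, with −0.43 in each genotype (limma −0.43 ± 0.05 SE, adjusted p = 0.0444). Dusp5 rose from 1.35 and 1.74 to 1.80 and 2.42, or 0.41 (WT) and 0.48 (hetero-KO; limma 0.45 ± 0.05 SE, adjusted p = 0.0454); its dimmer probe gave 0.11 in each. In Dusp5 the ages came close, at 1.74 (hetero-KO, 4 months) and 1.80 (WT, 18 months). All 4 calls lie just under the threshold, and none passed without the variance trend, without the filter on dim probes or with probe averaging; Fos alone passed under quantile normalization.

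**Figure D4:**
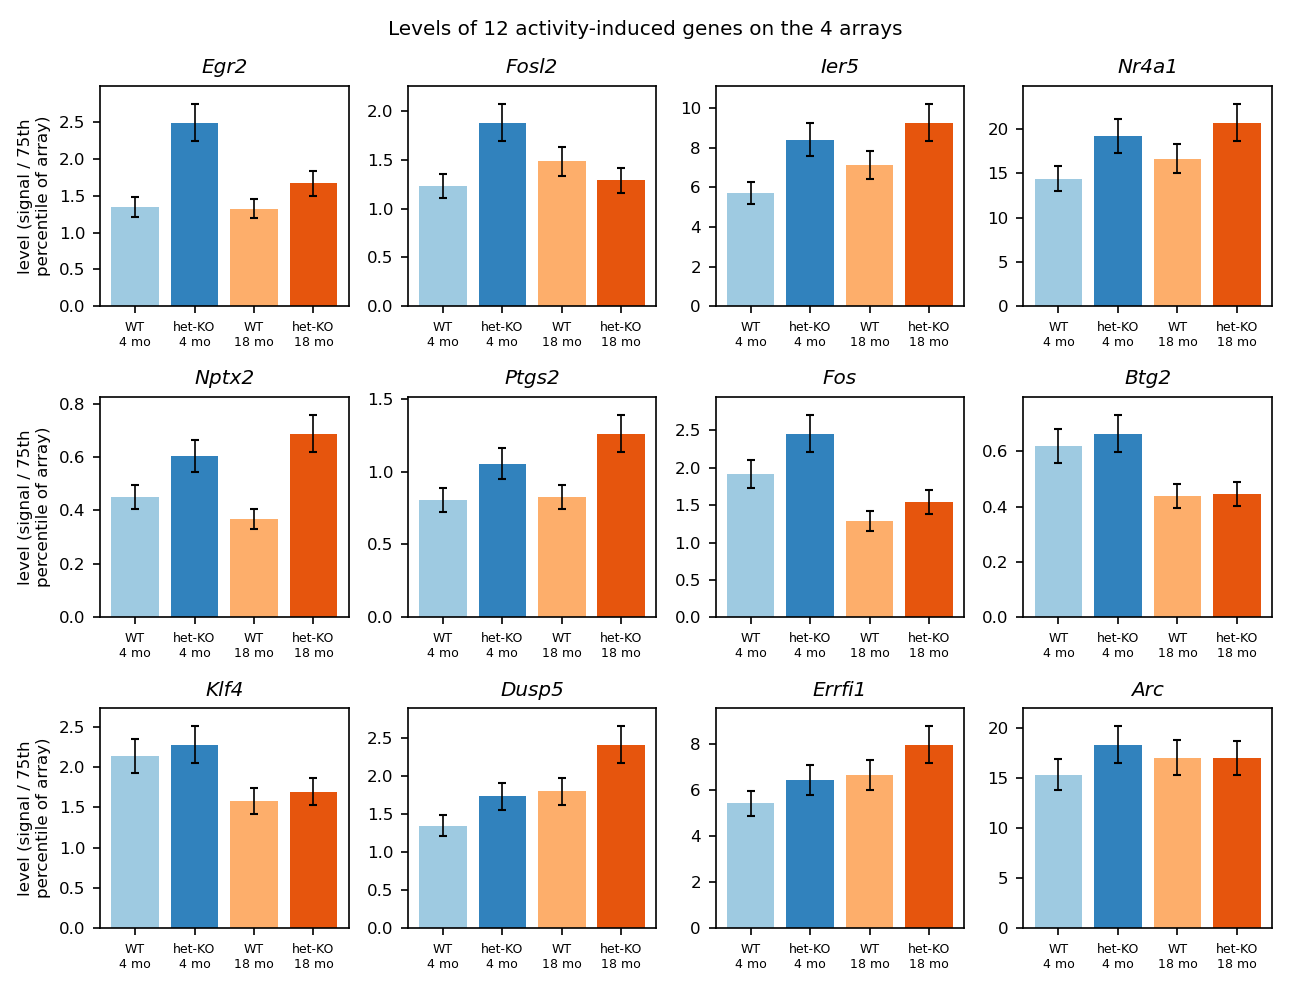
Levels of 12 of the genes (signal divided by the array's 75th percentile) on the 4 arrays, 1 array a bar with the scanner's spot error. Egr2 and Fosl2 are highest in hetero-KO at 4 months, Nptx2 and Ptgs2 in hetero-KO at 18 months, and Fos, Btg2 and Klf4 are lower on both 18-month arrays.

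Errfi1 just missed the threshold, with 0.29 in WT and 0.31 in hetero-KO (limma 0.30 ± 0.04 SE, adjusted p = 0.0503), as did the phosphatase Dusp1, with −0.34 and −0.55 (limma −0.44 ± 0.07 SE, adjusted p = 0.0547). The dimmer Errfi1 probe gave −0.05 in WT and 0.16 in hetero-KO. All 4 genes of the growth arrest and ADP-ribosylation group were lower at 18 months in both genotypes (medians −0.12 and −0.24). In WT only Btg2 was lower by more than the spot error, and in hetero-KO all but Gadd45g were. Of the EGR factors Egr1 was higher in both genotypes, by 0.15 and 0.13, as was Egr3 on its brightest probe, by 0.23 and 0.19. The other 2 Egr3 probes gave 0.18 and −0.02 in WT, and −0.02 and −0.48 in hetero-KO. Egr2 was lower by 0.58 (−0.58) in hetero-KO and by 0.03 (−0.03) in WT. Fosl2 was higher by 0.27 in WT and lower in hetero-KO (−0.54), while its dimmer probe was lower in both (−0.23 and −0.07). In WT 10 of 40 genes were higher by more than the spot error (16.9% of all genes were) and 8 lower (12.7%). In hetero-KO 5 were higher (20% of all genes) and 15 lower (12.3%). Whether the age difference depends on genotype was not tested, since no array remains to estimate error.

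**Figure D5:**
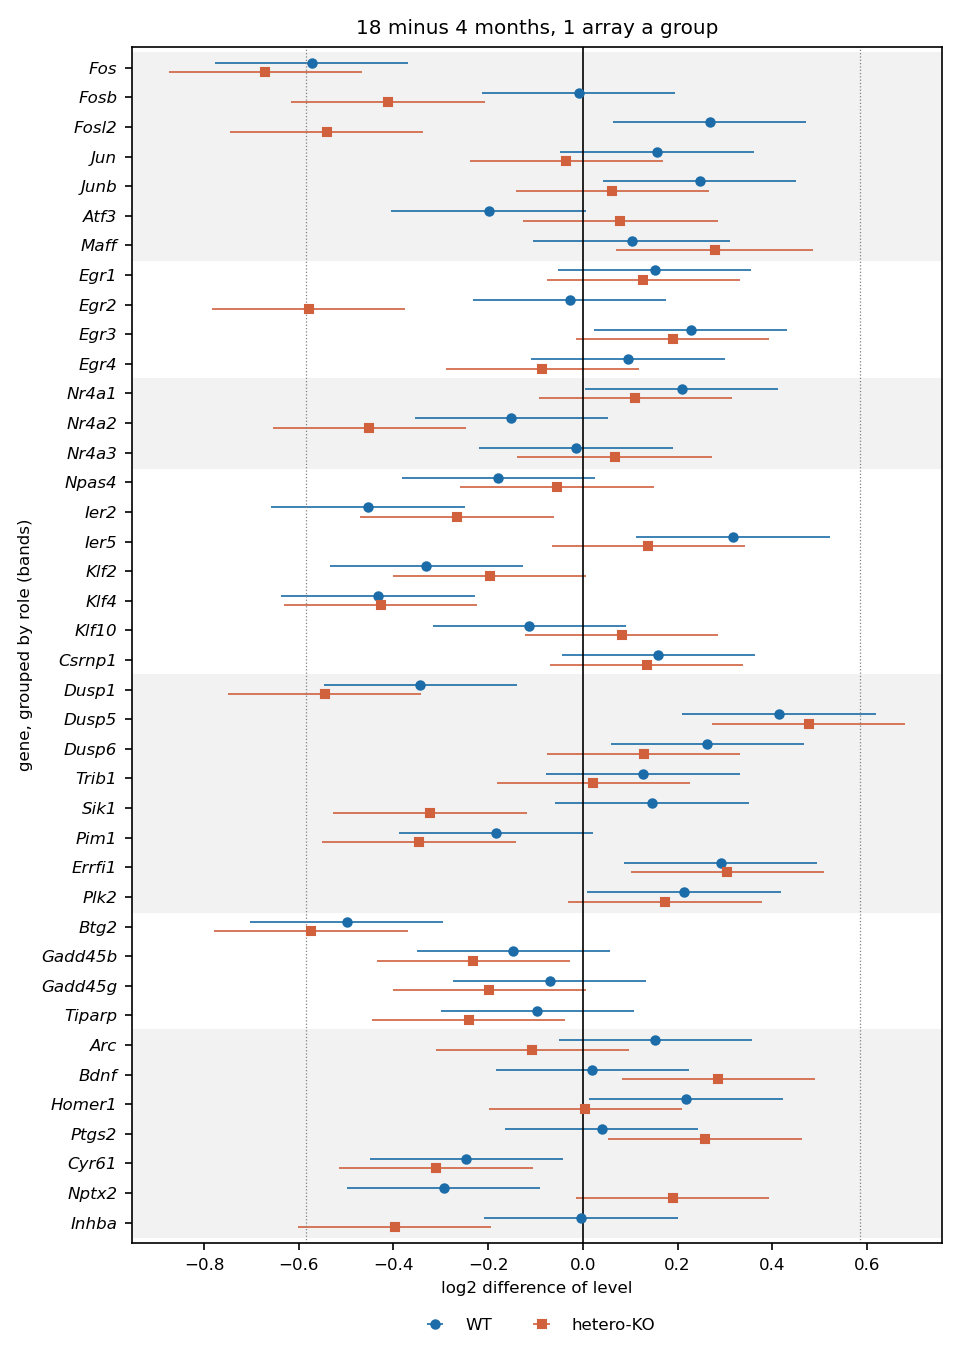
Log2 difference of level, 18 minus 4 months, for each of the 40 genes in bands by role, in WT (blue circles) and hetero-KO (orange squares); bars are the scanner's spot error and dotted lines mark 1.5-fold. Points fall on both sides of 0, with Fos at −0.57 and −0.67 farthest left and Dusp5 at 0.41 and 0.48 farthest right.

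The age comparisons set tissue of different makeup side by side. Thalamus and habenula markers were lower at 18 months for 16 of 17 in WT and 17 of 17 in hetero-KO (medians −2.02 and −1.78; Shox2 −4.54 by limma), and striatum markers for 14 and 18 of 18 (medians −0.31 and −1.17). Endothelial markers, of vessels in which Klf2 and Klf4 are also expressed, were lower for 17 of 20 in WT (median −0.21). Of the same markers 7 of 20 were lower in hetero-KO (median 0.04). Between the ages Klf2 changed by −0.33 (WT) and −0.20 (hetero-KO), and Klf4 by −0.43 in each genotype. Microglial markers were higher for 16 and 17 of 18 (medians 0.40 and 0.51). Their part in the age differences was not tested, and in each genotype the pools of different age also differ in sex makeup, so that the contributions cannot be told apart. Glucocorticoid-induced genes were higher at 18 months for 13 and 16 of 16 (medians 0.26 and 0.40), and 6 of 16 rose by limma, among them Plin4 (1.69) and Sgk1 (0.65).

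The authors' deposited table gives other values for the 18-month groups. Its 4-month columns equal the scanner signal up to a constant. Those of 18 months are not a constant multiple of any scanner file, so the arrays behind them are unknown. Their highest correlation of log2 values was 0.985, with the scanner file of another group. With the file of their own group it was 0.982 (WT) and 0.981 (hetero-KO). In the authors' deposited table Arc stood at 15.3 and 18.2 at 4 months and at 35.9 and 41.6 at 18 months, in WT and hetero-KO. Fos stood at 1.90 and 2.44, then 6.10 and 7.61, and Egr1 at 8.01 and 8.87, then 25.3 and 26.6, in the authors' deposited table. By that table most of the genes were thus far higher in the 18-month columns, the reverse of Fos on the scanner arrays: in the authors' deposited table as many as 27 of 40 genes were at least 1.5-fold higher at 18 months in each genotype, where 7.47% (WT) and 7.02% (hetero-KO) of all genes were. Jun went the other way in the authors' deposited table, from 7.76 and 8.77 to 4.19 and 4.79. Between the genotypes, the 18-month columns of the authors' deposited table had 39 of 40 genes higher in hetero-KO, where 51.4% of all genes were, with medians of 0.23 and 0.00. The differences there were 0.32 for Fos, 0.33 for Egr2 and 0.30 for Nr4a1 in the authors' deposited table, and 0.26, 0.33 and 0.31 on the scanner arrays. Others did not match: in the authors' deposited table Fosl2 and Sik1 were higher in hetero-KO at 18 months, by 0.48 and 0.45, where the scanner arrays gave −0.20 and −0.25. Nptx2 and Ptgs2 were below 1.5-fold in the authors' deposited table, at 0.42 and 0.34, and Dusp5, at 0.64, was the 1 of the 40 genes past it.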

How the data were processed

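Hippocampal RNA was labelled with Cy3, 200 ng a group, per the labels' protocols. The deposited scanner files hold intensity on a linear scale, background-subtracted within each array by Agilent Feature Extraction 11.5.1.1, per the file headers, and not normalized between arrays; all 4 arrays are on 1 slide, scanned together. The authors' deposited table holds a linear ratio; no source used here says how it was made; its column medians were 0.106, 0.103, 0.0993 and 0.0984 (WT and hetero-KO at 4 months, then at 18 months). Processed signals were log2-transformed and each array's 75th percentile was subtracted. Repeat spots were averaged; a probe counted as measured if 50% or more of them exceeded background clearly. The brightest probe stood for a gene. Genes measured on at least 2 arrays were tested with limma 3.58.1 in R 4.3.3 (additive model, eBayes with trend, Benjamini-Hochberg over all genes), a script tested on simulated data. Symbols came from RefSeq accessions (32994 probes matched; names only). The number of arrays limits the precision, and p-values measure only the spread among pooled arrays. The members and all lists were chosen with earlier results of these data known. Any member may be named; members past 1.5-fold or with the largest differences are described, and other genes come from the lists (at most the 4 with the largest differences of a list), beside Zbtb18 and the defining markers and Y-linked gene named as such. Alternatives were normexp background, quantile and median scaling, the mean of a gene's probes, other filters and the authors' table. A withheld item is not reported here.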

Additional observations from a re-analysis of the deposited data

Results flagged for a closer look

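Of the 40 genes, 2 moved in opposite directions in a pair of groups, each time by more than the spot error; with 1 array a group, these differences were not tested. The share of all genes that did so was similar: 1 of 40 (2.5%) against 2.88% for genotype at the 2 ages, and 1 of 40 against 2.43% for age in the 2 genotypes. Sik1 was higher in hetero-KO at 4 months (0.22 on the log2 scale) and lower at 18 months (−0.25), while in the authors' deposited table it was higher at both ages (0.22 and 0.45). Fosl2 was higher at 18 than at 4 months in WT (0.27) and lower in hetero-KO (−0.54). Its dimmer probe was lower in both (−0.23 and −0.07), and in the authors' deposited table it was higher in both (1.13 and 0.996).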

How the results depend on the processing

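The counts of genes higher in hetero-KO stayed at 34 to 36 of 40 at 4 months under every alternative run. At 18 months they were 30 or 31, but 39 by the authors' table, whose 18-month arrays are unknown. The filters could not change these counts, since all 40 genes were measured on all 4 arrays. Nor could the authors' table at 4 months, where it equals the scanner signal up to a constant. The 1.5-fold counts of 2 at each age became 0 with a 2-fold limit, 1 at 4 months with probe averaging, and 1 at 18 months with normexp background or the authors' table (there Dusp5, neither Nptx2 nor Ptgs2). With age, no gene was 1.5-fold lower in WT and 1 in hetero-KO. These became 1 and 3 under quantile normalization, 1 and 2 with probe averaging, and 1 in WT by the authors' table. The count in hetero-KO became 0 with a 2-fold limit. By the authors' table, 33 genes in WT and 35 in hetero-KO were higher at 18 months and 27 in each at least 1.5-fold so. The count of genes past the limma threshold with age, 4, became 1 under quantile normalization, 6 with normexp background and 6 with genes measured on all 4 arrays, Errfi1 among them in each (limma adjusted p = 0.0317 and 0.0441). None (0) passed with probe averaging, without the filter, without the trend or without the genotype term. As many as 36 passed by the authors' table, where Fos (1.66), Btg2 (0.73), Klf4 (0.75) and Errfi1 (−0.54) reversed. Dusp5 did not pass there, at −0.080, with −0.22 in WT and 0.06 in hetero-KO. The 18-month columns of the authors' table match no scanner file. The cause of the other changes was not tested. With 1 array a group no array could be left out with a test remaining: without either age, the genotype difference is that of the other age. No paired analysis was possible because no group has replicate numbers to pair. The genotype fit already holds age as a term, and without that term the count was 0 as well.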
